A study of Mus musculus with 8 samples.

Results

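The SLAM family (signalling lymphocytic activation molecules) was examined in messenger RNA from mononuclear cells of mouse blood. The members were taken by gene name from the deposited count table: the receptor genes Slamf1, Slamf6, Slamf7, Ly9, Cd48, Cd84 and Cd244a, and the genes of SH2 domain adaptors Sh2d1a and Sh2d2a. Each of the 9 names matched 1 of the 56748 genes in the table, and all 9 passed the filter on low counts. The animals were male wild-type C57BL/6J mice, 8 weeks old when dosing began, kept on a basal diet. In 3 of them fucoidan, a sulphated polysaccharide of the brown alga Undaria pinnatifida, was given by daily gavage at 200 mg per kg for 1 month, and 5 controls were gavaged with saline over the same time. The fucoidan group was taken from the sample titles and characteristics, since the treatment text of those samples speaks of saline. Blood came from the heart, and its mononuclear cells were separated on a density gradient, a preparation that here also held red cell and platelet RNA.

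SLAM receptors sit on the surface of blood cells and most of them bind their own kind on a neighbouring cell, so that contact between like cells gives a signal in both. CD48 and 2B4 instead bind each other, and CD48 also binds CD2 in the mouse. The tails of most of these receptors carry tyrosine motifs that the small adaptor SAP (Sh2d1a) binds, which brings in the kinase Fyn. Without SAP the same motifs can recruit phosphatases such as SHP-1, SHP-2 and SHIP-1. In lymphocytes the family is known for its part in natural killer cell triage of targets, in help from T cells to B cells and in the development of natural killer T cells. SLAM (Slamf1) and CD84 are also found on platelets, where they are known to help hold aggregates together.

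Total counts per library ran from 13061703 to 16334932, and the family took 10297 to 13740 of them. Haemoglobin transcripts took 3.51 to 8.48% of counts after saline and 13.5 to 24.1% after fucoidan, the highest share being that of fucoidan replicate 3. Levels below are TMM-scaled CPM (read counts relative to the scaled library size), which set the bulk of genes equal between libraries. A gene was called where edgeR's quasi-likelihood test gave a Benjamini-Hochberg adjusted p under 0.05 over the 14723 genes tested. Fold changes are fucoidan over saline, and they compare RNA from mixed cells, so more cells of a type and more RNA per cell cannot be told apart. Nothing in the labels says how litters or cages fell into the groups, and the p-values measure the spread between these libraries.

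Of the 9 members 4 rose with fucoidan: Slamf1, Cd84, Cd244a and Sh2d2a. None was called lower by edgeR, where 1 (Slamf6) had an unadjusted p under 0.05. DESeq2 also called 0 lower and limma-voom 1. Among all genes tested 9.11% were called higher and 4.65% lower. The 4 risers were also the members whose groups did not overlap, as was the case for 22.6% of all genes tested. The median log2 fold change of the family was 0.39, against -0.042 over all genes tested. Slamf1, Cd84, Cd244a and Sh2d2a kept their calls with the replicate number as a block.

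**Figure D1:**
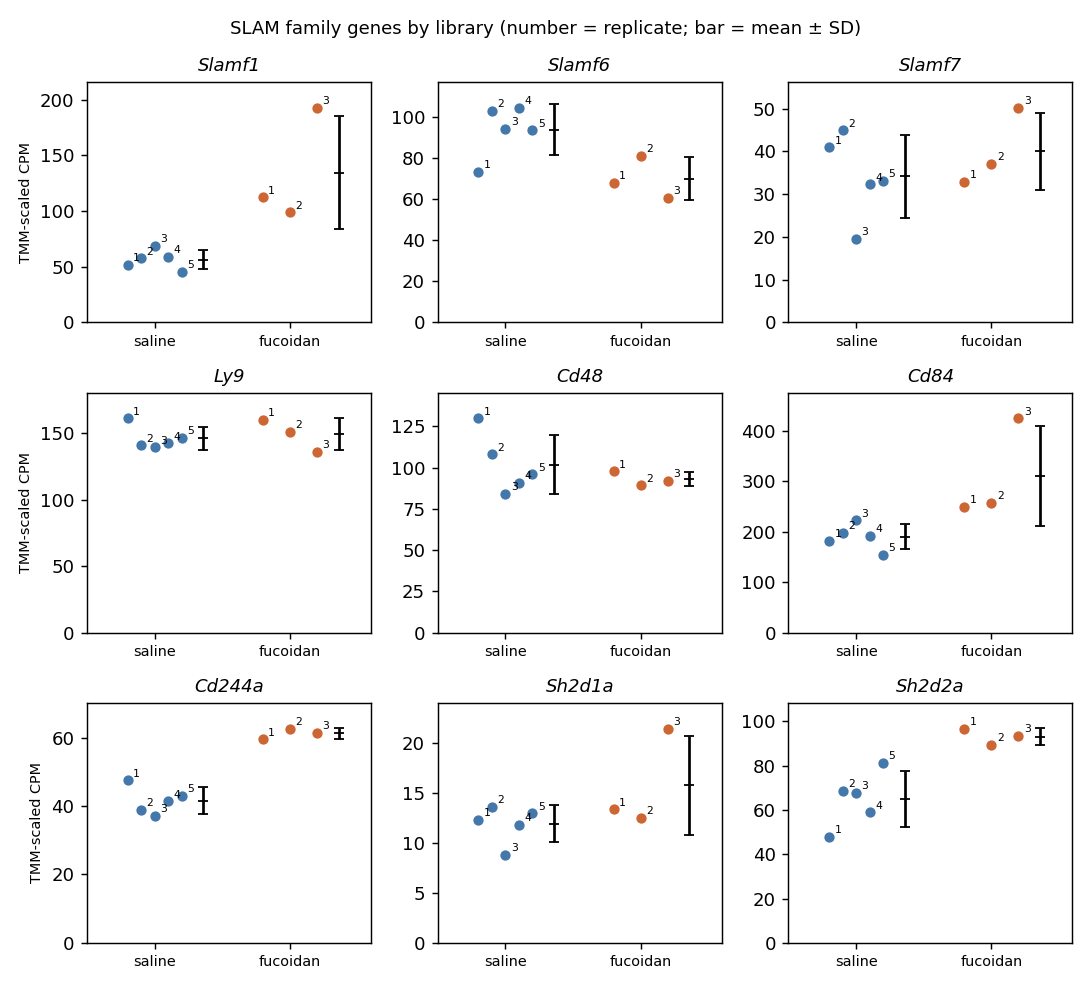
Level of each SLAM family gene in every library, in TMM-scaled CPM, with the replicate number beside each point and the mean ± SD of each group (5 saline, 3 fucoidan libraries) as a bar. In Slamf1, Cd84, Cd244a and Sh2d2a all fucoidan points lie above all saline points, and fucoidan replicate 3 stands far above the other two in Slamf1 (192 CPM) and Cd84 (425 CPM).

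Slamf1, which encodes SLAM or CD150, a receptor that binds itself and a sensor of some bacteria on phagocytes, had the largest rise of the family (ENSMUSG00000015316, GRCm39 chromosome 1, 171594695 to 171628752, plus strand). Its level in saline replicates 1 to 5 was 51.5, 57.5, 68.5, 58.7 and 45.3 CPM, and in fucoidan replicates 1 to 3 it was 112, 98.9 and 192 CPM. The lowest fucoidan library therefore lay above the highest saline library. The means were 56.3 ± 8.64 CPM (SD, n = 5) and 134.5 ± 50.6 CPM (SD, n = 3). Slamf1 was thus 2.38-fold higher (log2 1.25, SE 0.200, edgeR adjusted p = 0.00396). Raw counts of Slamf1 also did not overlap, at 863 to 1104 after saline and 1295 to 1749 after fucoidan. Without fucoidan replicate 3 the log2 fold change was 0.92, still called.

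Cd84, the gene of a receptor that binds itself and supports adhesion between T and B cells, rose with it (ENSMUSG00000038147, chromosome 1, 171667265 to 171718285, plus strand). Its saline libraries stood at 182, 197.5, 223, 192.5 and 155 CPM, and its fucoidan libraries at 249, 257 and 425 CPM. The groups did not overlap, and fucoidan replicate 3 again stood highest. The log2 fold change was 0.71 (SE 0.178, edgeR adjusted p = 0.0232), a 1.64-fold rise. That call was lost without fucoidan replicate 3 (log2 0.43, adjusted p = 0.0986), without saline replicate 4 (adjusted p = 0.0580) or 5 (0.0526), and with size factors from pan-leukocyte genes alone (log2 0.71, adjusted p = 0.0549).

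The libraries with more platelet RNA also had more Slamf1 and, less exactly, more Cd84. The 12 platelet markers summed to 3138, 3262, 4978, 3430 and 2340 CPM in saline replicates 1 to 5 and to 8070, 7050 and 15050 CPM in fucoidan replicates 1 to 3. All 11 tested markers rose, with a median log2 fold change of 1.58. None of the 12 was at 0 in all libraries, and the untested marker, Gp1bb, had 0 to 4 counts per library. Saline replicate 3 was the highest and saline replicate 5 the lowest saline library for platelet markers, Slamf1 and Cd84 alike. Within each group Slamf1 put the libraries in exactly the order of the platelet markers. Cd84 did not: it was higher in fucoidan replicate 2 than in replicate 1 and in saline replicate 2 than in replicate 4, each time against the order of the markers. Per 1000 CPM of summed platelet markers, a measure chosen after the values were seen, Slamf1 stood at 16.4, 17.6, 13.8, 17.1 and 19.4 CPM after saline and at 13.9, 14.0 and 12.8 CPM after fucoidan. The groups thus overlapped, through saline replicate 3 alone. Cd84 on that measure was 57.1 ± 7.92 CPM in the 5 saline libraries and 31.9 ± 4.23 CPM in the 3 fucoidan libraries (mean ± SD), without overlap and now lower with fucoidan. That is not particular to Cd84: the mean of every member was lower with fucoidan on this measure, as in Ly9 (45.4 and 16.8 CPM). The markers rose more (median log2 fold change 1.58) than any member (at most 1.25, in Slamf1), so lower means follow from the division. Erythroid markers moved the same way, with 12 of 13 called higher and sums of 33110 to 91550 CPM after saline and 161100 to 384500 CPM after fucoidan. The part of platelet or red cell RNA in these differences was not tested.

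**Figure D2:**
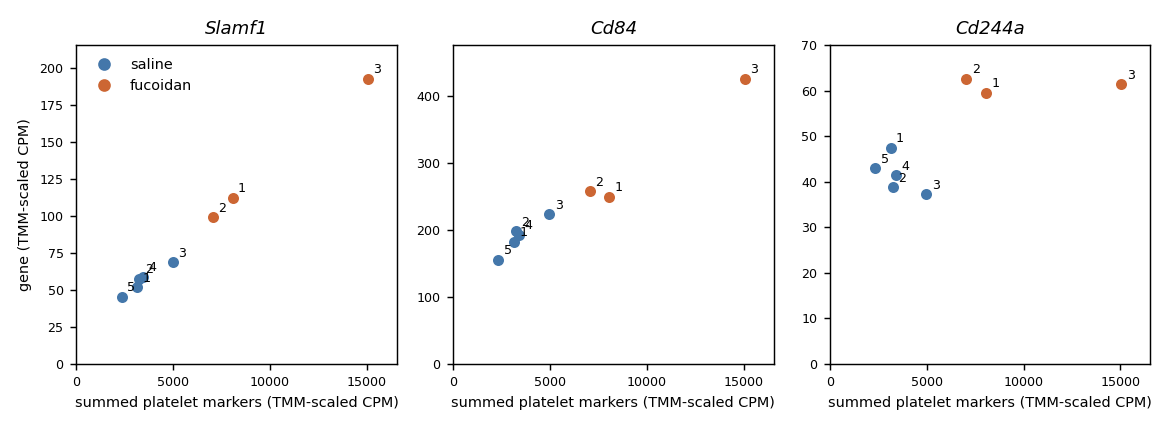
Level of Slamf1, Cd84 and Cd244a (vertical axis, TMM-scaled CPM) against the summed level of 12 platelet markers (horizontal axis, same unit) in each library, numbered by replicate. Slamf1 climbs with the markers from 45.3 CPM in saline replicate 5 to 192 CPM in fucoidan replicate 3, whereas Cd244a stands between 59.5 and 62.6 CPM in the fucoidan libraries although their marker sums run from 7050 to 15050 CPM.

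Cd244a encodes 2B4, the receptor for CD48 on natural killer cells and some CD8 T cells (ENSMUSG00000004709, chromosome 1, 171386761 to 171437314, plus strand). Its saline libraries stood at 47.5, 38.8, 37.2, 41.4 and 42.9 CPM, and its fucoidan libraries at 59.5, 62.6 and 61.4 CPM. The fucoidan libraries lay close together and above every saline library. The means were 41.6 ± 3.97 CPM (SD, n = 5) and 61.2 ± 1.56 CPM (SD, n = 3), and the gene was 1.47-fold higher (log2 0.56, SE 0.0993, edgeR adjusted p = 0.00521). Natural killer markers, of which 11 of 12 were called higher and none was at 0, summed to 442 to 626 CPM after saline and 872 to 1177 CPM after fucoidan. Saline replicate 1 had the highest natural killer sum (626 CPM) and the highest Cd244a (47.5 CPM) of its group. Fucoidan replicate 1 had the highest natural killer sum and the lowest Cd244a of its group. The part of these cells in the rise was not tested. The annotated Ly9 gene lies on the other strand wholly within Cd244a, an overlap of 18.8 kb. With no strand setting known for the counting, reads of Cd244a and Ly9 may not be fully told apart.

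Sh2d2a encodes TSAd, an adaptor of T and natural killer cells that binds the kinase Lck and is not one of the SAP adaptors (ENSMUSG00000028071, chromosome 3, 87754062 to 87763029, plus strand). It stood at 47.7, 68.6, 67.7, 58.9 and 81.4 CPM after saline and at 96.7, 89.3 and 93.3 CPM after fucoidan. The saline libraries spread widely, but none reached the fucoidan libraries. The log2 fold change was 0.52 (SE 0.146, edgeR adjusted p = 0.0367), a 1.44-fold rise near the threshold. The call was lost with upper-quartile (adjusted p = 0.0563) or pan-leukocyte factors (0.115) and on leaving out saline replicate 3 (0.0544), saline replicate 4 (0.0939) or any fucoidan library (0.0767 to 0.117). Of 12 shared T cell markers 2 were called higher and all 12 had a positive difference, with a median log2 fold change of 0.47. Their sums were 914 to 1215 CPM after saline and 1319 to 1739 CPM after fucoidan, with none at 0. Of 12 natural killer markers 11 were called higher, with sums of 442 to 626 CPM after saline and 872 to 1177 CPM after fucoidan. Whether T or natural killer cell content bears on the difference was not tested.

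Sh2d1a encodes SAP itself (ENSMUSG00000005696, chromosome X, 41591330 to 41618207, plus strand) and had the fewest counts of the family, 142 to 247 per library. It stood at 12.3, 13.6, 8.81, 11.9 and 12.97 CPM after saline and at 13.4, 12.5 and 21.5 CPM after fucoidan. Only fucoidan replicate 3 lay above the saline range. The log2 difference of 0.39 (SE 0.200, 95% interval -0.045 to 0.83) did not pass edgeR's test (adjusted p = 0.228), and it was 0.13 without fucoidan replicate 3.

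Slamf6, which encodes Ly108, a receptor of T, B and natural killer cells that binds itself, was the member with the most negative difference (ENSMUSG00000015314, chromosome 1, 171745082 to 171780737, plus strand). It stood at 73.3, 103, 94.2, 104 and 93.5 CPM after saline and at 68.0, 81.2 and 60.6 CPM after fucoidan. Fucoidan replicates 1 and 3 lay below the whole saline range, and replicate 2 lay above saline replicate 1. The log2 difference was -0.42 (SE 0.137, 95% interval -0.72 to -0.12) and missed the threshold in edgeR's test (adjusted p = 0.0651). It passed with limma-voom (log2 -0.44, adjusted p = 0.0186), upper-quartile factors (-0.47, 0.0474) or no filter (-0.43, 0.0341), and without saline replicate 1 (-0.50, 0.0195) or fucoidan replicate 2 (-0.54, 0.0492). B cell markers, of which 11 of 12 were called lower with a median log2 fold change of -0.70, summed to 5530 to 7368 CPM after saline and 3202 to 4522 CPM after fucoidan. None of the B cell markers was at 0. Shared T cell and natural killer markers went the other way, with median log2 fold changes of 0.47 and 1.1. The part of these cells in the Slamf6 values was not tested. Fucoidan replicate 3 was the lowest library of all for both Slamf6 and the B cell sum. In the saline group the B cell sum was lowest in replicate 2 (5530 CPM), which had 103 CPM of Slamf6. Slamf6 was lowest there in replicate 1, whose B cell sum was 6797 CPM.

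The other receptors gave no call. Ly9, the gene of CD229, a self-binding receptor of T and B cells (ENSMUSG00000004707, chromosome 1, 171416192 to 171434978, minus strand), stood at 161, 141, 140, 143 and 147 CPM after saline and 160, 151 and 136 CPM after fucoidan. These ranges nearly coincided, and the log2 difference was 0.029 (95% interval -0.18 to 0.24, edgeR adjusted p = 0.884), a sign that turned with upper-quartile factors (-0.019) and without fucoidan replicate 1 (-0.024).

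Cd48, the gene of a lipid-anchored ligand found on most leukocytes (ENSMUSG00000015355, chromosome 1, 171509577 to 171532826, plus strand), stood at 130, 108, 84.2, 90.7 and 96.1 CPM after saline and 97.7, 89.3 and 92.0 CPM after fucoidan. The fucoidan libraries all lay within the saline range. The log2 difference was -0.13 (95% interval -0.43 to 0.17, edgeR adjusted p = 0.586).

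Slamf7, the gene of CRACC, a self-binding receptor of natural killer and plasma cells that works through the adaptor EAT-2 (ENSMUSG00000038179, chromosome 1, 171459971 to 171480603, minus strand), stood at 41.0, 45.0, 19.6, 32.3 and 33.1 CPM after saline and 32.9, 37.1 and 50.2 CPM after fucoidan. It had the widest spread among saline libraries of any member, 28.5% of its mean, with replicate 3 lowest. The log2 difference was 0.22 (95% interval -0.29 to 0.73, edgeR adjusted p = 0.582). This interval is wide enough to hold the rise seen in Cd244a.

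**Figure D3:**
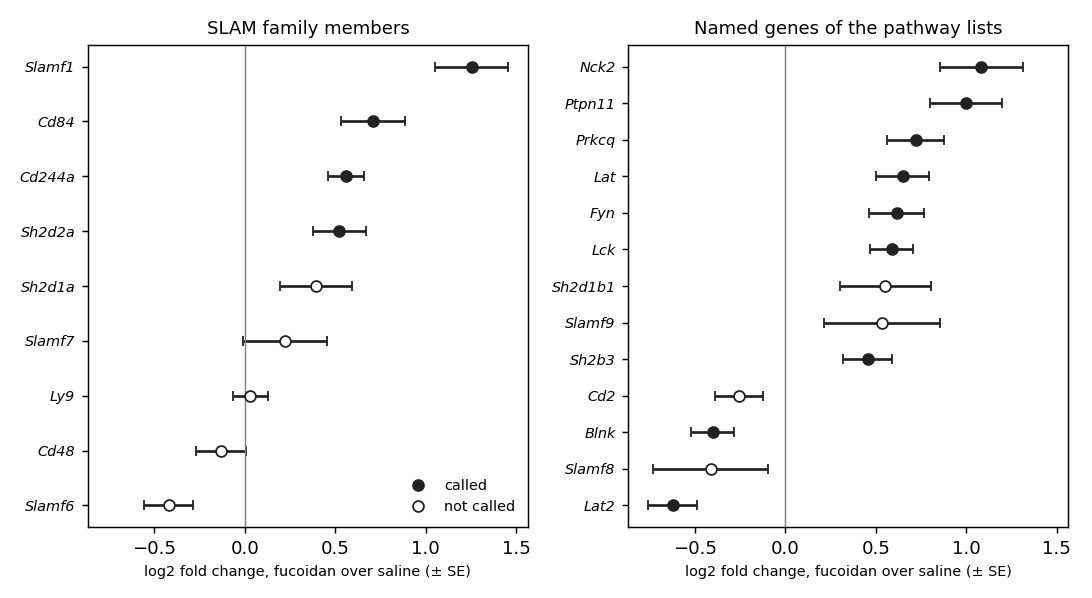
Log2 fold change of fucoidan over saline (horizontal axis, point ± SE) for the 9 SLAM family members and for the named genes of the pathway lists, with filled points for genes called by edgeR. The members run from -0.42 for Slamf6 to 1.25 for Slamf1, with only the upper 4 filled.

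In TMM-scaled CPM the family's summed level was higher after fucoidan, mostly in Slamf1 and Cd84. All 9 members together took 707 to 774 CPM after saline and 879 to 1133 CPM after fucoidan. This rise depends on the scaling. As raw counts the family took 11972 to 13740 after saline and 10297 to 12857 after fucoidan. Relative to unscaled library totals, the fucoidan libraries lay within the saline range. The 7 members other than these 2, a grouping chosen after their values were seen, summed to 451 to 518 CPM after saline and 515 to 528 CPM after fucoidan. Compared per kilobase of deposited gene length, Cd48 was the most abundant after saline at 85.6 ± 15.2 CPM per kb (SD, n = 5), followed by Ly9 at 44.2 ± 2.68 and Cd84 at 30.3 ± 3.93. Sh2d2a (10.9), Slamf1 (9.14), Slamf6 (8.65), Cd244a (8.52) and Slamf7 (7.47 CPM per kb) came next with ranges that ran into each other. Sh2d1a was lowest at 2.17 ± 0.338 CPM per kb. After fucoidan Cd48 stayed first at 78.2 ± 3.602 CPM per kb, Cd84 (49.6 ± 15.8) and Ly9 (45.1 ± 3.62) did not differ beyond their spread, and Slamf1 came next at 21.9 ± 8.22. Slamf6 stood at 6.46 ± 0.961 and Cd244a at 12.5 ± 0.319 CPM per kb after fucoidan, while after saline these genes did not differ beyond their spread. Of the family's summed level per kb, Cd48 held 41.1 ± 4.02% in saline libraries and 32.6 ± 3.22% in fucoidan libraries, and Slamf1 held 4.45 ± 0.880% and 8.91 ± 2.46% (mean ± SD).

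Ratios of 2 genes within a library do not depend on how libraries are scaled. Slamf1 had fewer counts than Slamf6 in every saline library, with ratios of 0.702, 0.557, 0.727, 0.563 and 0.485, and more in every fucoidan library, with ratios of 1.65, 1.22 and 3.17. The order of these genes by counts thus turned over between the groups in all 8 libraries. The mean log2 ratio differed by 1.63, a 3.09-fold change (two-sided exact permutation test, p = 0.0357, or 0.107 when adjusted over the 6 ratios). The unadjusted value is the smallest that 56 arrangements of 5 and 3 libraries allow. The test does not use the replicate numbers, which the labels do not say pair the libraries. Within the 3 pairs of like number the mean log2 difference was 1.495, and 3 pairs are too few for an exact paired test to reach 0.05. The receptor Cd244a over its ligand Cd48 ran from 0.360 to 0.456 after saline and from 0.610 to 0.702 after fucoidan, a 1.6-fold change without overlap (exact permutation p = 0.0357, adjusted p = 0.107) and a mean log2 difference within pairs of 0.77.

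The other 4 ratios overlapped between the groups. Cd2 over Cd48 (log2 difference -0.13), Sh2d2a over Sh2d1a (0.17) and the ratio of the EAT-2 gene Sh2d1b1 to the SAP gene Sh2d1a (0.23) had exact permutation p of 0.643, 0.643 and 0.357. Slamf7 over Slamf6 was higher by 0.68 on the log2 scale, with an exact permutation p of 0.143.

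**Figure D4:**
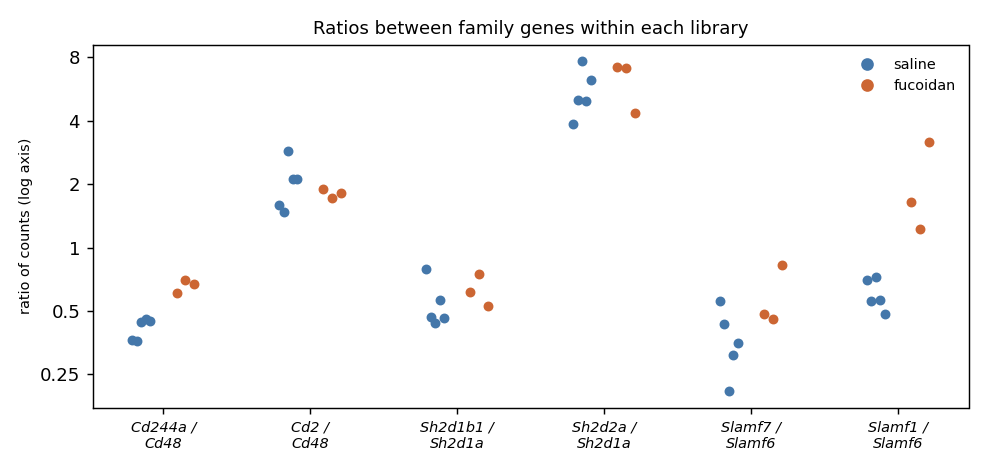
Ratio of the counts of 2 family genes within each library (vertical log axis) for the 6 pairs, with 5 saline and 3 fucoidan points each. Slamf1 over Slamf6 lies below 1 in every saline library and above 1 in every fucoidan library (1.22 to 3.17), and Cd244a over Cd48 is the other pair without overlap.

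The 7 receptor genes stand side by side on chromosome 1 within 394 kb, in the order Cd244a, Ly9, Slamf7, Cd48, Slamf1, Cd84 and Slamf6. The members that rose were not the whole stretch: Cd244a stands at one end, and Slamf1 and Cd84 are neighbours between Cd48 (log2 -0.13) and Slamf6 (log2 -0.42). The only other protein-coding gene there, Gm10521, lies between Cd84 and Slamf6 and had a log2 difference of -0.11 (edgeR adjusted p = 0.875). The non-coding gene Gm37065 overlaps the start of Slamf6 on the other strand and had 147 counts over all libraries, against 10828 for Slamf6.

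**Figure D5:**
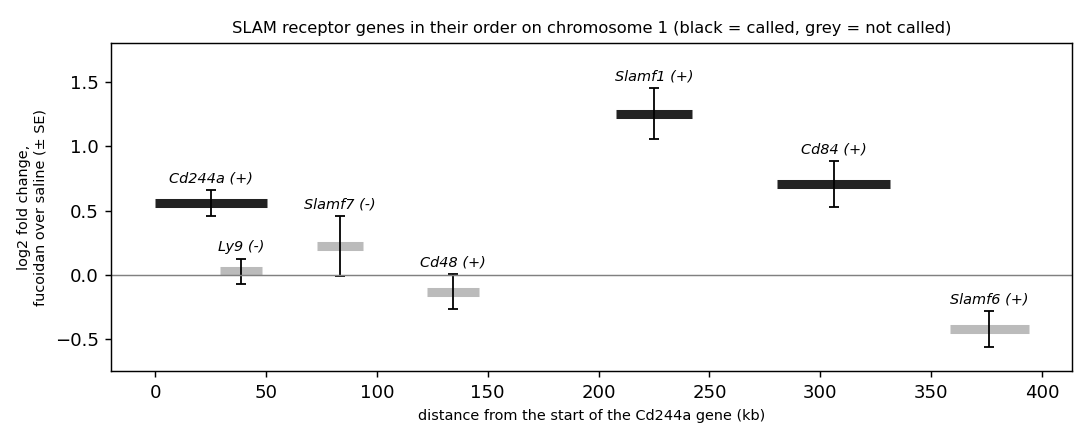
Log2 fold change of fucoidan over saline (vertical axis, ± SE) of the 7 SLAM receptor genes, each drawn as a bar over its extent by distance in kb from the start of Cd244a (horizontal axis). The called genes Cd244a, Slamf1 and Cd84 (black) stand among genes that were not called (grey), and Slamf6 at the right end lies lowest at -0.42.

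The start regions of these neighbours are shown because Slamf1 and Cd84 rose together and Slamf6 beside them did not. They are RefSeq sequences of GRCm38.p6, an older build than that of the count table, and 6 of the 9 members had an entry. Each runs 5′ to 3′ from 250 bases before to 50 bases after the annotated start on the plus strand. Capitals mark the ETS core GGAA on either strand.
Slamf1, chr1:171766882-171767181: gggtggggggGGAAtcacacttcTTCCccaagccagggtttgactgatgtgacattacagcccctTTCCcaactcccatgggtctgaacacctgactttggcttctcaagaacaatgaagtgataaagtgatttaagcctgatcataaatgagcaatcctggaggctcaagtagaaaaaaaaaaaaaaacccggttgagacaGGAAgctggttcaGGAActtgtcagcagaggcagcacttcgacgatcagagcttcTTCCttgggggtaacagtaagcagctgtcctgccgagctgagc
Cd84, chr1:171839447-171839746: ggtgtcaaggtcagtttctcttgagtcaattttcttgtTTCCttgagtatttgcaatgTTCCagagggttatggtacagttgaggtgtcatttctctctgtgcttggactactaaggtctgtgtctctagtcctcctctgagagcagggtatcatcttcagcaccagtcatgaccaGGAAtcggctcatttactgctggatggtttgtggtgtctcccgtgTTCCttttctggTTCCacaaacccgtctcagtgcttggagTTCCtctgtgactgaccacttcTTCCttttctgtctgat
Slamf6, chr1:171917212-171917511: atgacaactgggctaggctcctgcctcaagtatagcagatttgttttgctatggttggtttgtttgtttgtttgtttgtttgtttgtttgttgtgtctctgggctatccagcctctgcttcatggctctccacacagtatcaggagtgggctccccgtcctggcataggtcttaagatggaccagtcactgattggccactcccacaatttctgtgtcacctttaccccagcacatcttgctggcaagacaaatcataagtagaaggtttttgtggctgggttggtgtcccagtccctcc

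The core, the shared letters of the ETS factors that include platelet and lymphocyte regulators, was found at 6 places in the Slamf1 window, 7 in that of Cd84 and 0 in that of Slamf6. The windows of Cd244a, which rose, and of Cd48 and Slamf7, which were not called, held 4 each, so the number of cores did not separate the called members from the others. It is a short motif that 96.0% of 32851 such windows hold at least once. The RUNX letters TGTGGT, in 16.8% of windows, were found at 1 place for Cd84 and not for Slamf1 or Slamf6, and the GATA letters AGATAA, in 11.2% of windows, in none of the 3. E-box letters CANNTG, in 72.3% of windows, were found at 2 places for Slamf1 and at 1 each for Cd84 and Slamf6. All motifs were searched on both strands, and a match is a description of the letters and not a binding site.

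Other genes of the pathway were taken from 4 fixed lists with 39 genes besides the members, of which 36 were tested: 8 rose and 2 fell, with a median log2 fold change of 0.15, where 9.11% and 4.65% of all genes did. Sh2d1b1, the gene of EAT-2, the SAP relative of natural killer cells, stood at 9.79, 6.36, 3.85, 6.65 and 5.99 CPM after saline and 8.24, 9.32 and 11.3 CPM after fucoidan. Saline replicate 1 lay among the fucoidan libraries, and the log2 difference of 0.55 (SE 0.252) did not pass edgeR's test (adjusted p = 0.180) except without that library (log2 0.74, adjusted p = 0.0411). Its close copy Sh2d1b2 had 0 counts in all 8 libraries, which allows up to 0.158 to 0.330 CPM by counting error, though reads of the 2 copies may not be told apart.

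The outlying family members Slamf8 (9.21 ± 4.41 and 6.88 ± 1.14 CPM, log2 -0.41) and Slamf9 (5.17 ± 1.84 and 7.43 ± 2.83 CPM, log2 0.54), receptors of myeloid cells, were not called (SD, n = 5 and 3, edgeR adjusted p = 0.439 and 0.311). Cd2, the T cell adhesion receptor that binds CD48, went from 201 ± 29.0 to 168 ± 16.0 CPM without a call (log2 -0.25, edgeR adjusted p = 0.239).

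Of 18 kinases, phosphatases and other signalling genes downstream of SLAM receptors 5 rose and 0 fell, with a median log2 fold change of 0.083. Fyn, the kinase that SAP recruits, stood at 158, 223, 156, 148 and 193 CPM after saline and 244, 247 and 316 CPM after fucoidan. No saline library reached the fucoidan range (log2 0.62, SE 0.152, edgeR adjusted p = 0.0211), though the call was lost without fucoidan replicate 3 (0.109) or saline replicate 4 (0.0599) and with pan-leukocyte factors (0.0733). Ptpn11, the gene of the phosphatase SHP-2, went from 198 ± 26.1 to 396 ± 152 CPM (log2 1.00), and the adaptor gene Nck2 from 42.4 ± 7.81 to 90.0 ± 40.3 CPM (log2 1.08, not called with no filter, adjusted p = 0.0650). In both of these the highest library was fucoidan replicate 3, at 570 and 136 CPM. Lck (log2 0.59) and Prkcq, a protein kinase C of T cells (log2 0.72), also rose. Without fucoidan replicate 3 the log2 fold changes were 0.65 for Ptpn11, 0.67 for Nck2 and 0.48 for Prkcq, all still called (edgeR adjusted p = 0.0209, 0.0354 and 0.0445). The phosphatase genes Ptpn6 (log2 0.062) and Inpp5d (0.19) and the exchange factor gene Vav1 (0.011) were chosen after their values were seen and were not called.

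Of 6 partners of TSAd, a list that shares Lck and Nck1 with the one above, 2 were called higher, Lck among them, and 0 lower by edgeR. Their median log2 fold change was 0.30. Among 10 other SH2 and linker adaptors of lymphocytes Lat, the T cell linker (log2 0.65), and Sh2b3, a brake on cytokine signalling (log2 0.46), rose. Lat, which stood at 125, 122 and 195 CPM in the fucoidan libraries, was at log2 0.41 without fucoidan replicate 3 (edgeR adjusted p = 0.0421). Lat2 (log2 -0.62) and Blnk, the B cell linker (log2 -0.40), fell. With the replicate number as a block Sh2b3 and Blnk were not called (adjusted p = 0.123 and 0.0945), and without fucoidan replicate 3 Sh2b3, Blnk and Lat2 were not (0.194, 0.210 and 0.0574). Sh2b3 also lost its call with upper-quartile or pan-leukocyte factors and when saline replicate 4, saline replicate 5 or fucoidan replicate 2 was left out (0.0568 to 0.108), and Blnk with median-of-ratios or pan-leukocyte factors, with erythroid and platelet genes left out, and when any of saline replicates 3, 4 and 5 or fucoidan replicates 1 and 2 was left out (0.0521 to 0.104).

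Further cell type lists gave these counts. Called higher were 1 of 2 CD8 T cell, 3 of 5 CD4 T cell, 3 of 5 natural killer T cell, 4 of 7 nonclassical monocyte and 2 of 6 conventional dendritic cell markers. Called lower were 2 of 6 plasma cell, 2 of 8 classical monocyte and 1 of 6 macrophage markers. Plasmacytoid dendritic cell markers (6 tested) and pan-leukocyte genes (12 tested) each had 1 called higher and 1 lower, and edgeR called none of 8 neutrophil and 6 basophil and mast cell markers. Their part in the members' values was not tested.

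The scaling of the libraries bears on every difference above except the ratios. Haemoglobin takes a larger part of the total after fucoidan, and when libraries were scaled to their totals alone, an alternative added after the data were seen, the differences of all genes shifted by a median of -0.38 on the log2 scale. Slamf1 was then still called higher (log2 0.83, adjusted p = 0.00184). Cd84 (0.29, adjusted p = 0.125), Cd244a (0.18, 0.362) and Sh2d2a (0.14, 0.536) were not, and Slamf6 (-0.78, 0.00710) and Cd48 (-0.51, 0.0333) were called lower. Slamf7, Ly9 and Sh2d1a turned sign to -0.19, -0.34 and -0.031 without a call. With size factors from 12 tested pan-leukocyte genes, whose sums were 9048 to 11030 CPM after saline and 9519 to 10220 CPM after fucoidan, Slamf1 and Cd244a were the members called. Of the 8 pathway genes that rose, Ptpn11 and Nck2 kept the call with library totals. Over all genes 66.2% of calls were higher, against 55.7% with upper-quartile factors and 14.6% with library totals.

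Likeness of pattern was taken as the root mean square difference of centred log2 CPM over the 8 libraries, among 9480 protein-coding genes. By this measure the gene nearest to Slamf1 was Nomo1 (0.0639), followed by Plek (0.0729). The rises of Nomo1 and Plek (log2 1.28 and 1.20) follow from choosing genes by likeness to Slamf1 in these same libraries. The nearest to Cd84 were Ehd4 (0.0661) and Rasgrp2 (0.0682), and the nearest to Cd244a were Clec2d (0.0615) and Arl8b (0.0905). N4bp2 (0.0318) and Rabep1 (0.0435) lay nearest to Slamf6, Eif1ad (0.0300) and Cpne3 (0.0354) to Ly9, and Hsd17b4 (0.0522) and Elmo2 (0.0541) to Cd48. Sh2d1a, Sh2d2a and Slamf7 had no neighbour as close, the nearest being Serpina3g (0.117) and Entpd1 (0.132), Tanc1 (0.116) and Nt5e (0.119), and Slc33a1 (0.123) and Slc9a9 (0.136).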

How the data were processed

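Whole-number read counts per gene from poly(A) libraries, as deposited by the authors, came with names, lengths and GRCm39 positions. The submitters' processing notes name cutadapt 4.0, Trimmomatic 0.39 and HISAT2 2.2.1. Not given in the sources used here are the counter, the annotation release and whether strand was used. Genes were filtered with filterByExpr and tested with edgeR 4.0.16 (R 4.3.3) in robust quasi-likelihood mode on TMM-scaled counts. The SE is the absolute log2 fold change over the square root of F. Ratios used counts plus 0.5 and exact permutation over 56 arrangements. Alternatives used other factors, DESeq2 1.42.0, limma 3.58.1 (voom), other filters and left-out libraries. The procedure was tested on simulated data. Members and lists were chosen with earlier results of these data known. Named are all members, called pathway genes and Sh2d1b1, Sh2d1b2, Slamf8, Slamf9, Cd2 and Fyn, and the 2 genes most like each member. The values of 1 called pathway gene are not reported here. Genes of 17 cell type lists were summed per library. No library duplicated another (correlations 0.947 to 0.986).

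Replicate numbers come from the titles. With the group means removed, libraries of the same number correlated across groups at 0.177, 0.233 and 0.144, and other pairs at -0.261 to 0.144. The labels do not say that a number links libraries, and these values do not settle it. The main fit therefore had no block, and a fit with the replicate block was run as an alternative. Saline replicates 4 and 5 have no fucoidan library of the same number in that fit. A single batch date is given throughout, which leaves no batches to compare.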

Additional observations from a re-analysis of the deposited data

Results flagged for a closer look

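Among 29 values per library examined in the saline group (members, ratios and named pathway genes), 1 stood apart. Slamf8 was at 17.0 CPM in saline replicate 1 and at 6.42 to 8.51 CPM in the other saline libraries, a gap of 0.802 of the range. Chance sets about 1 group in 20 apart by this measure, and groups of 3 were not examined. Classical monocyte markers were also highest in that library (6708 CPM, against 3498 to 4129 CPM in the other saline libraries), and their part in the value was not tested.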

How the results depend on the processing

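The count of called genes, 2025, was 928 to 2224 when 1 library was left out (lowest without fucoidan replicate 3, and 1291 without saline replicate 4), 1561 with the replicate block and 5553 with library totals. Members called higher, 4, numbered 2 with pan-leukocyte factors, 1 with library totals and 2 to 4 with a library left out (2 without saline replicate 4 or fucoidan replicate 3). Members called lower, 0, numbered 1 with upper-quartile factors, limma-voom or no filter, 2 with library totals and 0 to 1 with a library left out. Pathway genes called higher, 8, numbered 5 with pan-leukocyte factors, 2 with library totals and 5 to 9 with a library left out (5 without fucoidan replicate 3). Pathway genes called lower, 2, numbered 1 with median-of-ratios or pan-leukocyte factors, with erythroid and platelet genes left out or with the replicate block, 11 with library totals and 0 to 2 with a library left out (0 without fucoidan replicate 3). Ly9 turned to -0.019 with upper-quartile factors and ran from -0.024 (without fucoidan replicate 1) to 0.099 with a library left out. With library totals Ly9, Slamf7 and Sh2d1a turned to -0.34, -0.19 and -0.031. The replicate block ended the calls of Sh2b3 and Blnk and no other call among the named genes. Ratios kept their direction except Cd2 over Cd48, at 9.3e-04 without saline replicate 3; Slamf1 over Slamf6 was 1.24 without fucoidan replicate 3 and 1.93 without fucoidan replicate 2. The causes were not tested. Sh2d1a (SE 0.200) and Sh2d1b1 (SE 0.252) allow only large differences to be seen, as does Slamf7 (SE 0.232), which had more counts. Except with library totals, the median of all genes moved most with upper-quartile factors (-0.049).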
